A study of Mus musculus with 2 samples.

Results

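Neuropeptide genes were followed across the cell types of the dorsal root ganglion (DRG), where sensory neurons have their cell bodies, amid glia, blood vessels, fibroblasts and macrophages. The members are *Calca*, *Calcb*, *Tac1*, *Adcyap1*, *Nppb*, *Sst*, *Gal*, *Npy*, *Cartpt* and *Nts*. They were chosen by symbol, and all 10 were found among the 32285 genes of the deposited counts. The data are single-cell RNA sequencing of dissociated L4 and L5 DRGs from naive female C57BL/6 mice aged 3 months. There were 2 samples of this single condition, called replicates 1 and 2, with no injury, drug or transgene. The comparisons are therefore between cell types. The main fit did not pair the types of a sample, and a fit with the replicate number as a block was an alternative. Live cells were sorted before capture. The study calls the samples biological replicates, and the number of animals behind each is not given in the sources used here, so that p-values measure the spread between these 2 samples.

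Neuropeptides are cut from larger precursor proteins by prohormone convertases, stored in dense-core vesicles and released to act on G protein-coupled or guanylyl cyclase receptors. In the DRG they are best known from nociceptors. *Calca* and *Calcb* encode the forms of calcitonin gene-related peptide (CGRP), a vasodilator, *Tac1* encodes substance P, and *Adcyap1* encodes PACAP. *Nppb* and *Sst*, which encode a natriuretic peptide and somatostatin, are known from itch neurons, *Gal* and *Cartpt* encode galanin and the CART peptide, and *Nts* encodes neurotensin. *Npy* encodes neuropeptide Y, which is scarce in uninjured sensory neurons and is induced there by nerve injury.

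On GRCm38 with GENCODE M21, *Calca* (chr7:114631478-114636357, minus strand) and *Calcb* (chr7:114718643-114723365, plus strand) are neighbours 82285 bases apart. No other gene of the annotation overlaps any of the 10 members, all of which are protein-coding. *Npy* lies at chr6:49822710-49829507 on the plus strand and *Nts* at chr10:102481756-102490486 on the minus strand. Sequence before the gene is shown for *Npy* and *Nts*, from RefSeq windows on GRCm38.p6 (9 of the 10 members had one). *Npy* was the only member called higher in SGCs (satellite glial cells), and *Nts* in mural cells, than in the other non-neuronal types. The sequences are chr6:49822460-49822709 (plus strand) for *Npy* and chr10:102490487-102490668 (minus strand) for *Nts*, where the window was cut at the first base of the GENCODE gene. They run 5′ to 3′ on the strand of the gene, and capitals mark matches on either strand to the cyclic AMP response element TGACGTCA, the AP-1 element TGACTCA or the TATA element TATAAA.
Npy: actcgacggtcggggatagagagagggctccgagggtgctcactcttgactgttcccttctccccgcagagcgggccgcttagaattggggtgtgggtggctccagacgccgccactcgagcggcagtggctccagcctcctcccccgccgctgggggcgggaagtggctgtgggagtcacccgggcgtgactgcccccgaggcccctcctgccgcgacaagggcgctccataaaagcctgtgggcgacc
Nts: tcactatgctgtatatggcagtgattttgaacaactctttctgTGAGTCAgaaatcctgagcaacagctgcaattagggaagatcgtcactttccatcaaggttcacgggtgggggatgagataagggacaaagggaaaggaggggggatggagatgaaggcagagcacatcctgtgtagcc
The match in *Nts* is to the AP-1 element, read on the other strand, which stood in 4.46% of the 32851 windows of 250 bases in the table. The *Npy* sequence held none of these letters. TGACGTCA stood in the windows of *Sst* and *Cartpt* and in 1.55% of all windows, and TATAAA stood in those of *Nppb* and *Adcyap1* and in 12.4% of all windows.

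In all, 16887 cells were retained, 14107 of them in 8 named types. A cluster of 284 barcodes with neuron markers had been removed for its mitochondrial UMIs (median 56%). Another, of 215 barcodes with markers of myelinating Schwann cells, had been removed for also holding markers of another type. Satellite glial cells (SGCs), the glia that wrap sensory neurons, were the largest type, and the median SGC held 15611 UMIs in replicate 1 and 16411 UMIs in replicate 2. Neurons, named from *Prph*, *Tubb3*, *Stmn2* and other markers, split by depth, and *Isl1*, the other marker of the study's pair, stood at a mean of 185 CPM in those above 20000 UMIs (CPM, the UMIs of a gene in 1000000 UMIs of the summed profile). There were 53 and 51 neurons above 20000 UMIs (medians 111056 and 97927 UMIs in replicates 1 and 2), 11 and 14 neurons between 3000 and 20000 UMIs, and 295 and 98 barcodes under 3000 UMIs (medians 822 and 738). The summed markers of neurons reached 17930 and 17170 CPM in neurons above 20000 UMIs, and 1310 and 1353 CPM in SGCs. In SGCs *Isl1* and *Prph* stood at means of 0.66 and 9 CPM, so that most of that sum came from other markers of the list. *Fabp7*, a marker of SGCs, was present at 638 CPM in the neurons above 20000 UMIs against 11110 CPM in SGCs. RNA outside cells, called free RNA here, was taken from the 45000 barcodes ranked 45000 to 90000 by UMIs in each sample, which held 54 to 91 UMIs each in replicate 1 and 88 to 157 in replicate 2.

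Barcodes were shared between the libraries, mainly among the neurons under 3000 UMIs. A barcode was counted as shared when the other library held at least 10% of its UMIs. This was the case for 85 of 295 such neurons in replicate 1 (28.8%) and for 85 of 98 in replicate 2 (86.7%), against at most 0.595% of the cells in any other named group. Of the shared barcodes, 26 in replicate 1 and 33 in replicate 2 were neurons above 20000 UMIs in the other library, which held a median of 198 and 185 times their UMIs. Of the other 59 and 52, 52 and 51 held 0.8 to 1.25 times their own UMIs in the other library. The remaining 7 in replicate 1 lay below this range, and the remaining 1 in replicate 2 lay above it, at 1.46 times. Among the free RNA barcodes, 19.7% and 15.4% were shared in this way. The main comparisons with neurons under 3000 UMIs and with free RNA are therefore also given without them. Whether the neurons under 3000 UMIs and the free RNA hold RNA of the other library was not tested, and their levels are given with this limit.

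**Figure D1:**
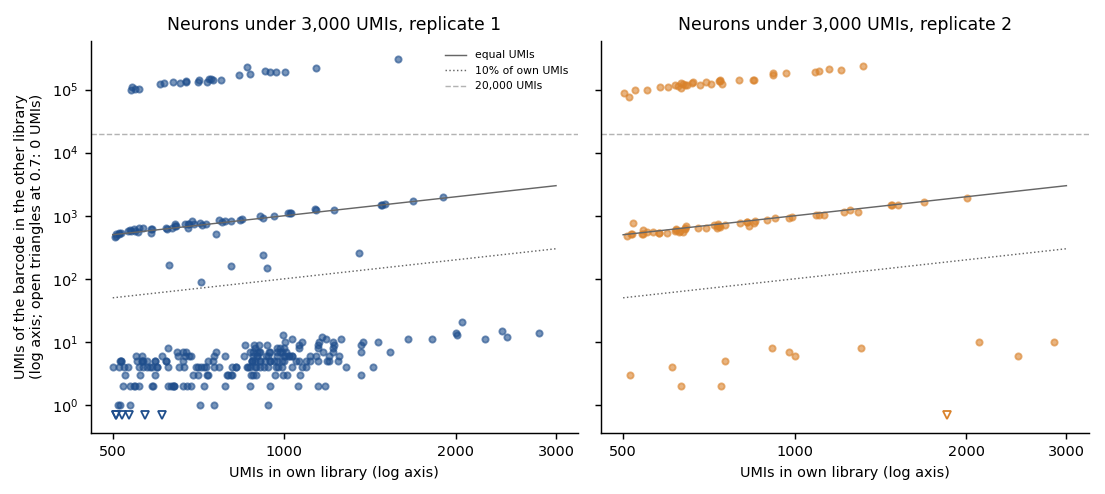
UMIs of each barcode named as a neuron under 3000 UMIs (log x axis) against the UMIs of the same barcode in the other library (log y axis), for replicate 1 (295 barcodes) and replicate 2 (98 barcodes). The points above the dashed line, 26 and 33 of them, are neurons above 20000 UMIs in the other library, and the points on the solid line held equal UMIs in both.

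Neurons above 20000 UMIs carried most members at levels far above every other type. *Calca* reached 3853 and 3254 CPM in replicates 1 and 2 (3554 ± 423, mean ± SD, n = 2), and the 7 non-neuronal types held 5.24 to 32.8 CPM. *Tac1* reached 2875 and 2457 CPM (2666 ± 295), with 4.24 to 9.99 CPM outside neurons. The values of the neurons did not overlap those of any non-neuronal profile for either gene. *Adcyap1* stood at 509 and 386 CPM (448 ± 86.7), *Gal* at 380 and 465 CPM (423 ± 60.5) and *Calcb* at 210 and 213 CPM (211 ± 2.04). These levels are CPM of 3′ ends and were not divided by gene length. For these genes the replicates lay close together next to the distance from the other types.

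The other members differed far more between the replicates. *Cartpt* stood at 226 and 50.1 CPM, *Nppb* at 60.5 and 4.24 CPM and *Nts* at 88.2 and 1.11 CPM. For each of these genes replicate 1 was the higher sample. *Sst* had 571 UMIs (97.8 CPM) in replicate 1 and 0 UMIs in replicate 2, where a count of 0 allows up to 0.553 CPM. *Npy* had 12 UMIs (2.06 CPM) in replicate 1 and 1 UMI (0.184 CPM) in replicate 2, which is below its level in SGCs in that sample.

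In the fit over all 17917 genes tested (edgeR quasi-likelihood test, Benjamini-Hochberg adjustment), all 10 members were called higher in neurons above 20000 UMIs than in the mean of the 7 non-neuronal types, where 34.9% of all genes were. The median log2 difference of the members was 8.42 against -0.0591 over all genes. The log2 difference was 8.69 ± 0.11 (SE) for *Tac1* (adjusted p = 1.7e-23), 8.07 ± 0.25 for *Calca* (adjusted p = 4.4e-18) and 7.12 ± 0.10 for *Calcb* (adjusted p = 5.8e-23). *Adcyap1* differed by 9.28 ± 0.17 and *Gal* by 8.75 ± 0.18. *Npy* had the lowest value, 4.27 ± 1.07 (adjusted p = 0.0021), and rests on the 12 UMIs of a single neuron in replicate 1. DESeq2 did not call *Npy* (adjusted p = 0.059). The contrast weighs the types equally, and over all non-neuronal cells together the level of *Npy* was 1.02 CPM against 1.15 CPM in these neurons (ratio 1.13, 95% counting interval 0.592 to 1.99). Leaving out cells above a UMI cutoff of 46383 kept only 4 and 10 of these neurons and 6 of the calls, without *Nppb*, *Sst*, *Npy* and *Nts*. The share of all genes called with that cutoff is not given.

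**Figure D2:**
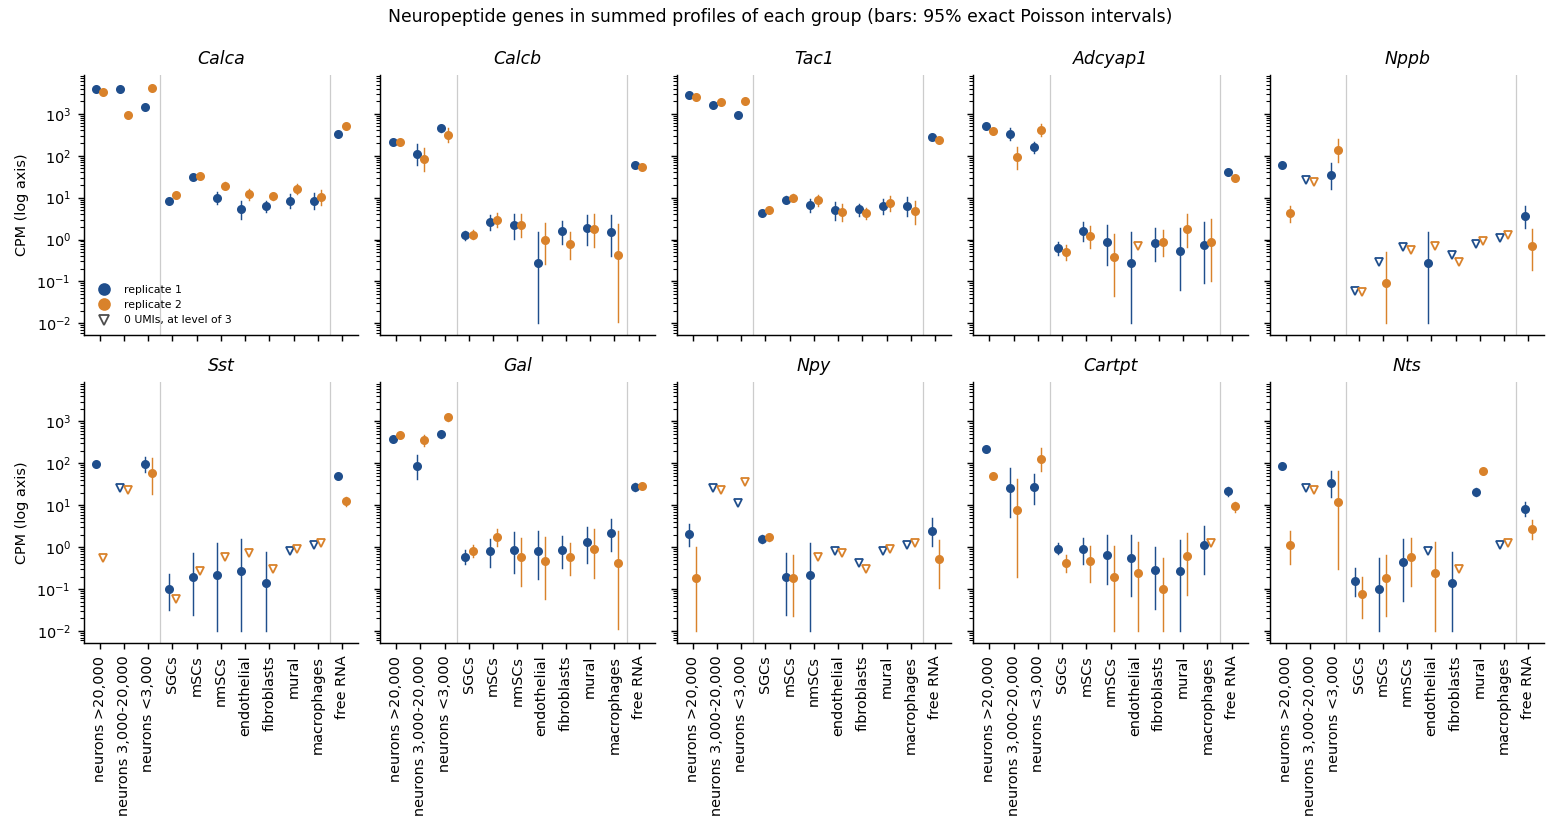
Level of each member in CPM (log y axis) in neurons by UMI class, the 7 non-neuronal types and free RNA, with replicates 1 and 2 as points and exact Poisson 95% intervals as bars; bars that reach below 0.01 CPM end there, and open triangles mark 0 UMIs, drawn at the level of 3 UMIs. *Calca*, *Calcb*, *Tac1*, *Adcyap1* and *Gal* stand high in neurons and low elsewhere in both replicates, *Npy* stands above the other non-neuronal types in SGCs, and *Nts* does so in mural cells.

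Within the 104 neurons above 20000 UMIs, the members formed overlapping sets. Each neuron was thinned to 20000 UMIs, and a member was taken as present at 5 UMIs or more. *Tac1* was present in 51 of 53 neurons in replicate 1 and 43 of 51 in replicate 2, and *Calca* in 30 and 29. *Adcyap1* was present in 33 and 23 neurons, *Gal* in 24 and 27, *Calcb* in 11 and 15, and *Cartpt* in 10 and 3. *Npy* was not present in any neuron at this depth. Of the 59 neurons with *Calca*, 56 had *Tac1*, 44 had *Adcyap1* and 40 had *Gal*. *Tac1* was present in each of the 56 neurons with *Adcyap1* and each of the 51 with *Gal*. The most frequent sets were *Tac1* alone (16 neurons) and *Calca*, *Tac1*, *Adcyap1* and *Gal* together (15 neurons), each seen in both replicates, and 6 neurons had no member at this level. *Calca* ranged from 0 to 182 UMIs per 10000 in replicate 1 (median 4.3) and from 0 to 243 in replicate 2 (median 4.5).

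Most UMIs of *Sst*, *Nppb* and *Nts* in replicate 1 came from the same 2 neurons. In replicate 1, a neuron of 183653 UMIs held 497 UMIs of *Sst*, 184 of *Nppb* and 364 of *Nts*, and a neuron of 137051 UMIs held 72, 150 and 151. These neurons gave 99.6% of the *Sst* UMIs, 94.6% of the *Nppb* UMIs and 100% of the *Nts* UMIs of the 53 neurons of that replicate. They held 57 and 52 UMIs of *Tac1*, 4 UMIs each of *Calca*, 5 and 0 of *Calcb*, and no UMI of *Adcyap1*, *Gal*, *Cartpt* or *Npy*. Replicate 2 held no such neuron. Its highest value of *Nppb* was 20 UMIs, in a neuron with 39 UMIs of *Calca*, 60 of *Gal* and none of *Sst* or *Nts*. Its highest value of *Nts* was 5 UMIs, in a neuron without *Nppb* or *Sst*. The levels of these genes in the summed profile of replicate 1 are therefore those of 2 neurons. The neuron with the 12 *Npy* UMIs was another, with 140490 UMIs, 590 UMIs of *Tac1* and 1 of *Calca*.

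**Figure D3:**
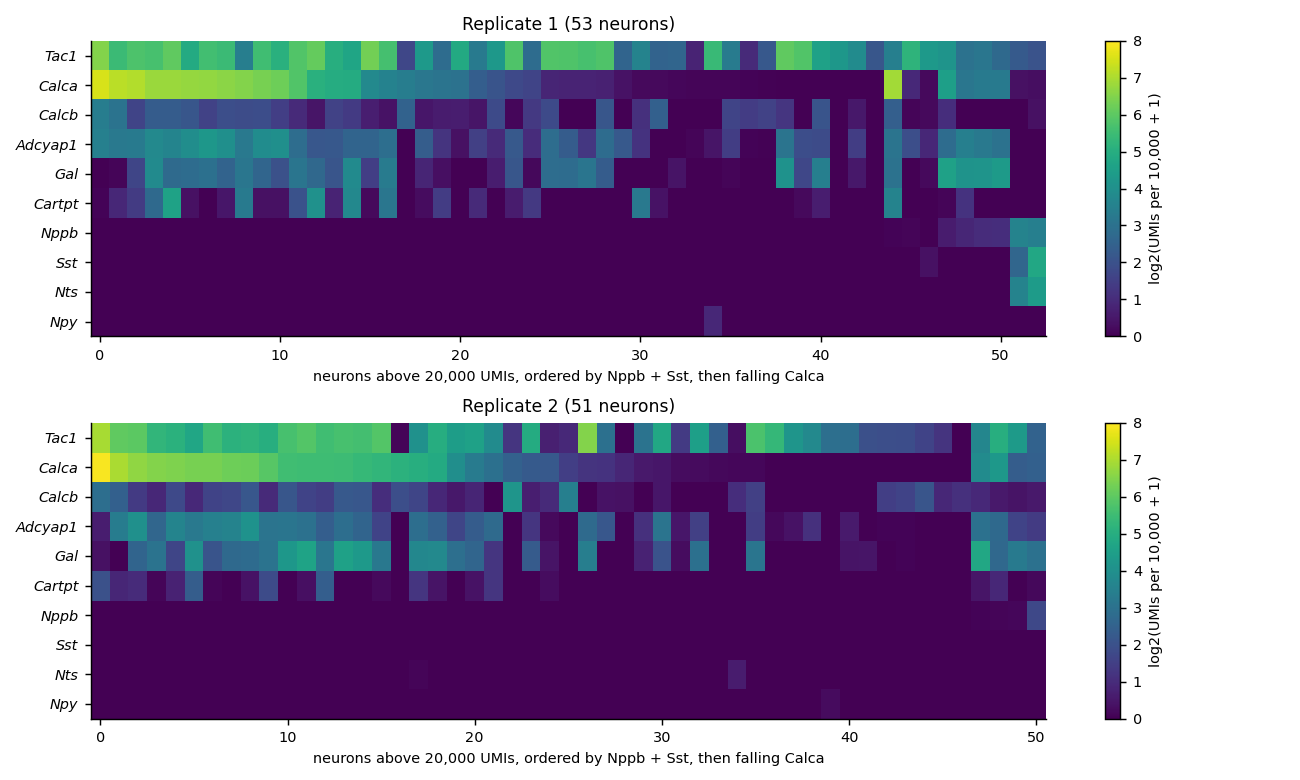
UMIs of each member per 10000 UMIs in every neuron above 20000 UMIs, as log2(value + 1) in colour, for replicate 1 (53 neurons) and replicate 2 (51 neurons), ordered by *Nppb* plus *Sst* and then by falling *Calca*. The 2 neurons at the right of replicate 1 carry *Nppb*, *Sst* and *Nts* with little *Calca*, and no neuron of replicate 2 does.

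The 11 and 14 neurons between 3000 and 20000 UMIs held *Calca* at 3923 and 935 CPM and *Tac1* at 1590 and 1877 CPM, and no UMI of *Nppb*, *Sst*, *Npy* or *Nts*. In the neurons under 3000 UMIs, *Calca* stood at 1486 and 4059 CPM, *Tac1* at 956 and 2047 CPM and *Gal* at 495 and 1264 CPM. Replicate 2, with the larger part of shared barcodes, was the higher sample for each. Shared barcodes held *Calca* at 4154 and 4539 CPM, against 535 and 2091 CPM in the others. The others were 210 barcodes with 190554 UMIs in replicate 1 and only 13 barcodes with 16737 UMIs in replicate 2. *Gal* stood at 1605 and 1397 CPM in the shared barcodes and at 99.7 and 717 CPM in the others. *Calcb* ran the other way in replicate 1, with 206 CPM in shared barcodes and 535 CPM in the others. *Tac1* did so in replicate 2, with 1717 CPM in shared barcodes and 3406 CPM in the others, but not in replicate 1, with 2033 and 572 CPM. Where a barcode was a neuron above 20000 UMIs in the other library, its own *Calca* level (5168 and 5866 CPM) stood beside 4092 and 4772 CPM in those neurons. All 5 *Sst* UMIs of replicate 2 lay in such barcodes, whose partners in replicate 1 held 569 UMIs of *Sst*. No *Npy* UMI was found in the neurons under 3000 UMIs, whose 258446 and 85478 UMIs allow up to 11.6 and 35.1 CPM.

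Against the mean of the non-neuronal types, 8 of the 10 members were called higher in these neurons, where 13.6% of all genes were. *Nts* was not called (9 and 1 UMIs) and *Npy* had 0 UMIs. Without shared barcodes 7 were called, with *Cartpt* lost, and the share of all genes called is not given for that setting. Replicate 2 then rested on 13 barcodes. Between the neurons of many and of few UMIs, 3 of 10 members differed, where 6.06% of all genes did. *Tac1* (log2 difference 1.32 ± 0.19, adjusted p = 7e-04) and *Adcyap1* (1.30 ± 0.30, adjusted p = 0.01) were higher in neurons above 20000 UMIs, and *Calcb* was lower (-0.60 ± 0.17, adjusted p = 0.03). The median difference of all genes was 0.58 in this comparison, and 0.24 when library totals replaced the TMM factors, with *Calcb* still called lower and *Adcyap1* no longer called. The call of *Calcb* was lost with free RNA subtracted (adjusted p = 0.051) and with 20 principal components in the clustering (adjusted p = 0.064). Without shared barcodes, 4 members were called higher and *Calcb* lower, where 8.38% of all genes were called. The differences were then 2.73 for *Calca*, 1.93 for *Tac1*, 2.36 for *Adcyap1*, 1.88 for *Gal* and -0.82 for *Calcb*. With the replicate number as a block, *Cartpt* was called higher as well (adjusted p = 0.015).

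Free RNA carried the neuronal peptides in both samples. *Calca* stood there at 327 and 525 CPM, *Tac1* at 285 and 236 CPM, *Calcb* at 60.5 and 52.7 CPM and *Adcyap1* at 40.7 and 28.9 CPM. These levels lie between those of neurons above 20000 UMIs and those of the non-neuronal types, also without shared barcodes, where *Calca* stood at 390 and 589 CPM and *Tac1* at 340 and 265 CPM. In those neurons 8 members were called higher than in free RNA, where 32.5% of all genes were, and *Npy* and *Sst* were not. With shared barcodes left out of the free RNA, *Sst* was called as well (9 members, against 33.4% of all genes). With the UMI cutoff of 46383, which left 4 and 10 neurons above 20000 UMIs, 5 members were called. The share of all genes called is not given for that setting. *Sst* gave 159 and 71 UMIs in free RNA, but 20 and 2 UMIs once shared barcodes were left out. It was also the member most concentrated in few barcodes, with up to 15 UMIs in a barcode. *Npy* was the scarcest member in both samples, with 8 UMIs in 7 barcodes (2.47 CPM) and 3 UMIs in 3 barcodes (0.522 CPM), or 4 and 2 UMIs without shared barcodes.

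In the SGCs, *Calca* gave 418 and 620 UMIs (8.25 and 11.8 CPM) and *Tac1* 217 and 267 UMIs (4.28 and 5.10 CPM), at most 2.52% of their level in free RNA. The share of free RNA among the UMIs of SGCs was estimated from marker genes of other types as a median of 3.06% and 2.83%. *Calca*, *Calcb*, *Tac1*, *Adcyap1*, *Gal*, *Cartpt* and *Nts* stood at 1.5% to 4.47% of their free RNA level in SGCs. *Nppb* had no UMI in SGCs, and *Sst* had 5 and 0 UMIs. *Npy* stood at 63.2% and 329% of its free RNA level.

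The test of SGCs against free RNA at equal weight called 0 of the 10 members higher (edgeR quasi-likelihood test), where 26.8% of all genes were. None was higher at an unadjusted p under 0.05 either, and DESeq2 called 0. It called 9 members lower, where 25.0% of all genes were, with *Npy* the exception (log2 difference 0.75 ± 0.70, adjusted p = 0.40). The lower call was lost for *Sst* with shared barcodes left out of the free RNA (adjusted p = 0.067), for *Nppb* with DESeq2, and for *Nppb* and *Nts* with free RNA from ranks 90000 to 180000. The value for *Npy* was -0.23 with replicate 1 alone and 2.06 with replicate 2 alone, and 1.39 (adjusted p = 0.15) with shared barcodes left out of the free RNA. This test sets a whole SGC profile against undiluted free RNA. In an alternative chosen after the data were seen, free RNA was entered at its estimated share of SGC UMIs. *Npy* was then higher by 5.63 ± 0.64 on the log2 scale (adjusted p = 2.4e-07), where 89.1% of all genes were called higher. Without shared barcodes in the free RNA it was 6.24 ± 0.65 (adjusted p = 8.7e-08), where 89.6% of all genes were. The other 9 members were not called, with values from -3.62 for *Sst* (adjusted p = 0.082) to 1.07 for *Cartpt* (adjusted p = 0.16). At that share the free RNA would give 3.83 and 0.774 UMIs of *Npy* in the SGC profiles, which held 79 and 90.

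**Figure D4:**
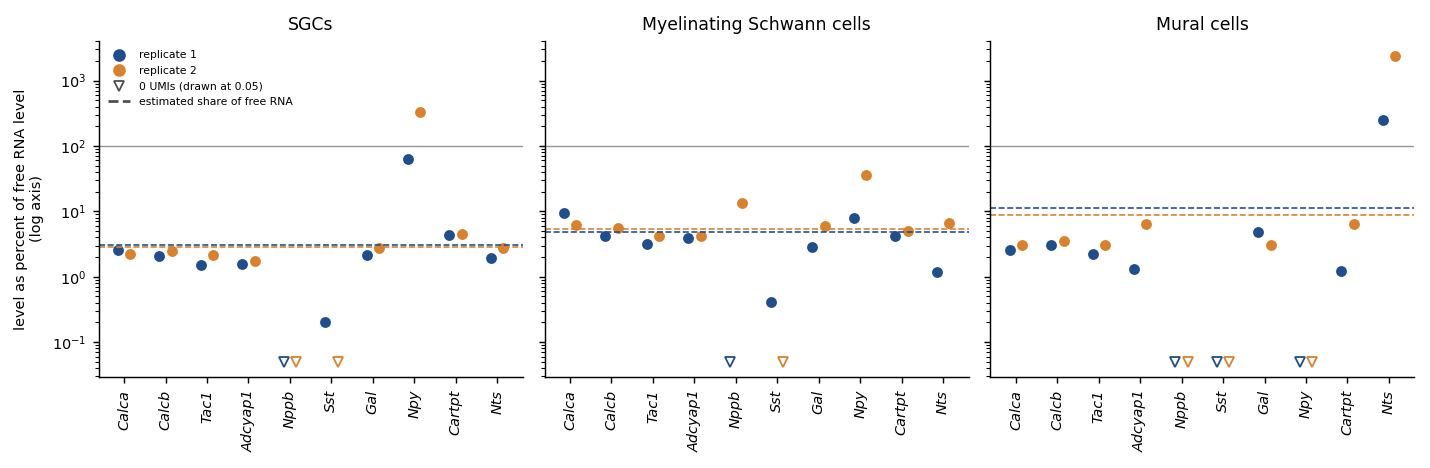
Level of each member as a percentage of its level in free RNA (log y axis) in SGCs, myelinating Schwann cells and mural cells, with replicates 1 and 2 as points and open triangles at 0 UMIs; dashed lines give the estimated share of free RNA among the UMIs of the type and the grey line marks 100%. In SGCs most members lie near the dashed lines and *Npy* lies at 63.2% and 329%, and in mural cells *Nts* lies above 100% in both replicates.

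*Npy* was found in SGCs at 1.56 and 1.72 CPM (1.64 ± 0.11, n = 2). Myelinating Schwann cells held 2 and 2 UMIs (0.198 and 0.185 CPM), non-myelinating Schwann cells 1 and 0 UMIs, and endothelial cells, fibroblasts, mural cells and macrophages no UMI. The SGC profiles were above each of these in both replicates. Over both replicates the SGC level was 8.57-fold that of myelinating Schwann cells (95% counting interval 3.29 to 31.8). Against the floor of 3 UMIs over the group, it was at least 9.42-fold that of fibroblasts and at least 4.29-fold that of endothelial cells. The bounds were lower for mural cells (at least 3.87-fold) and macrophages (at least 2.74-fold). In macrophages a count of 0 allowed up to 1.11 and 1.3 CPM in replicates 1 and 2. Set against the mean of the remaining non-neuronal types, *Npy* was the only member called higher in SGCs (log2 difference 5.81 ± 0.80, adjusted p = 1e-05), where 29.8% of all genes were. The size of this fitted value depends on the prior count, since most of these types were at 0. It was also called against each of the 6 types alone, with 3.1 ± 0.82 (adjusted p = 0.005) for myelinating and 4.04 ± 1.17 (adjusted p = 0.016) for non-myelinating Schwann cells. Against neurons above 20000 UMIs the difference was 0.72 ± 0.67 (adjusted p = 0.37).

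Few SGCs carried these UMIs. A *Npy* UMI was found in 30 of 3083 SGCs in replicate 1 (0.973%) and in 32 of 3064 in replicate 2 (1.04%), against 2 of 1612 and 2 of 1643 myelinating Schwann cells (0.124% and 0.122%). After thinning to 1000 UMIs, 6 SGCs in each replicate kept one (0.195% and 0.196%, exact binomial 95% intervals 0.0715% to 0.423% and 0.0719% to 0.426%). None of the 1611 and 1639 myelinating Schwann cells did at this depth, with exact upper limits of 0.229% and 0.225%, and these intervals overlap those of SGCs. For comparison, *Calca* was found in 10.9% and 16.5% of SGCs before thinning. The UMIs of *Npy* lay in few cells: 11 SGCs in replicate 1 and 12 in replicate 2 held at least 3 UMIs and together 70.9% and 68.9% of all *Npy* UMIs, with up to 18 in a cell. For *Calca*, 14 and 17 SGCs with at least 3 UMIs held 12.4% and 11.5% of its UMIs. *Cartpt* was also concentrated, with 4 and 1 such SGCs holding 66% and 40.9% of its 47 and 22 UMIs. No barcode of free RNA held more than 2 *Npy* UMIs, but these barcodes held at most 91 and 157 UMIs each. None of the 23 SGCs with at least 3 *Npy* UMIs was marked as a doublet or had a shared barcode. Both were rare in all SGCs, with 20 of 3083 and 13 of 3064 marked as doublets and 12 and 10 with a shared barcode. Finding none among 23 cells therefore says little. The 23 cells had median UMIs of 12403 and 21173, against 15611 and 16404 in SGCs without *Npy*. Their summed neuron markers stood at 1365 and 1462 CPM, against 1310 and 1352 CPM. Over all SGCs *Isl1* and *Prph* stood at means of 0.66 and 9 CPM, so that most of this sum came from other markers of the list. Whether the 23 cells held RNA of neurons was not tested. The *Npy* UMIs came from all 4 SGC clusters, at 0.462 to 2.95 CPM in replicate 1 and 0.669 to 1.99 CPM in replicate 2.

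**Figure D5:**
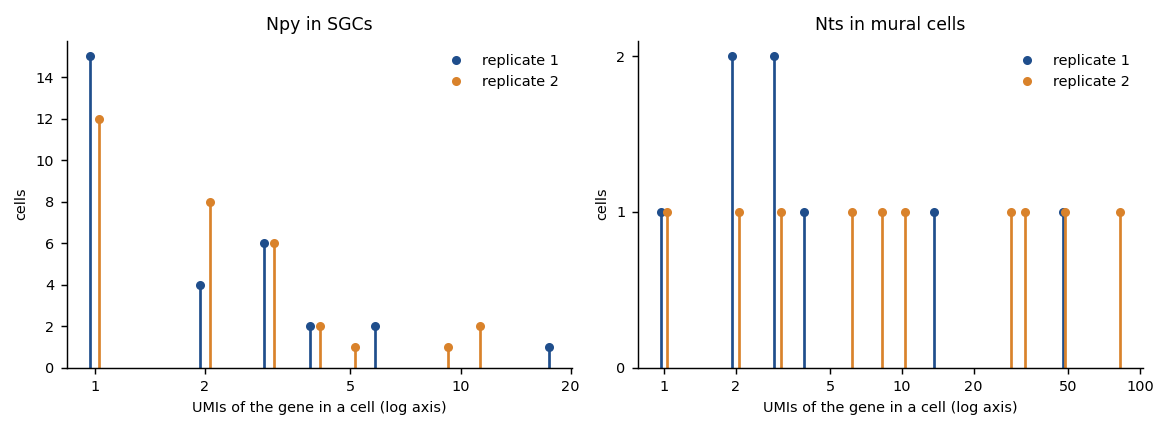
Number of cells (y axis) by the UMIs of the gene that they held (log x axis), for *Npy* in SGCs and *Nts* in mural cells of replicates 1 and 2; cells without a UMI are not drawn. The UMIs of *Npy* reach 18 in a cell and those of *Nts* reach 80, in both cases in a small number of cells.

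*Nts* was the only member called higher in mural cells, the pericytes and smooth muscle cells of vessels, than in the other non-neuronal types. They held 78 and 217 UMIs (20.6 and 66.2 CPM), and the other 6 non-neuronal types held 0 to 0.57 CPM. Both mural profiles were above every other non-neuronal profile. The log2 difference from the mean of those types was 8.59 ± 0.99 (adjusted p = 4.2e-07), where 19.6% of all genes were called higher. *Nts* was also higher in mural cells than in free RNA (3.34 ± 0.99, adjusted p = 0.008), where 25.6% of all genes were called higher. It did not differ detectably from neurons above 20000 UMIs (-0.04 ± 0.74, adjusted p = 0.98), whose value rests on 2 neurons. Only 8 of 392 and 10 of 316 mural cells carried a UMI (2.04% and 3.16%), and 5 and 8 of them held 93.6% and 98.6% of the UMIs, up to 49 and 80 in a cell. All but 1 of these UMIs came from the mural cluster led by *Rgs5*, *Acta2* and *Myh11*, and not from that led by *Acta2*, *Myh11* and *Tagln*, so that markers of pericytes and of smooth muscle led the cluster that held them. Of the 13 cells with at least 3 UMIs, 1 was marked as a doublet. Neuron markers stood at 84.2 and 448 CPM in these cells, against 448 and 490 CPM in mural cells without *Nts*. Over all mural cells *Isl1* and *Prph* stood at means of 0.59 and 13.8 CPM, so that most of this sum too came from other markers of the list. The choice to describe *Nts* in mural cells was made after its values were seen.

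In myelinating Schwann cells, the glia that form myelin, *Calca* stood at 31 and 32.8 CPM, the highest of the non-neuronal types. *Calca* (1.62 ± 0.35), *Calcb* (1.16 ± 0.27) and *Tac1* (0.79 ± 0.20) were called higher there than in the mean of the other non-neuronal types, where 25.5% of all genes were. Each stood far below free RNA, at 9.48% and 6.24% of its level for *Calca* and 3.16% and 4.24% for *Tac1*. The estimated share of free RNA was 4.89% and 5.38% in this type. It was lower in SGCs (3.06% and 2.83%) and non-myelinating Schwann cells (3.41% and 4.7%). It was higher in endothelial cells (7.87% and 9.8%), fibroblasts (6.19% and 8.32%), mural cells (11.4% and 8.79%) and macrophages (6.88% and 15.2%). The part of free RNA in the differences of *Calca*, *Calcb* and *Tac1* was not tested. In endothelial cells, *Calcb* was called lower than in the other non-neuronal types (adjusted p = 0.042, with 1 and 4 UMIs), where 24.4% of all genes were, and DESeq2 did not call it. In non-myelinating Schwann cells, fibroblasts and macrophages edgeR called 0 members in either direction, where 33.8%, 44.6% and 44.2% of all genes were called, 0 members passed an unadjusted p of 0.05 and DESeq2 called 0.

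Genes of the pathway were taken from 4 lists. All 12 genes for processing and vesicles were called higher in neurons above 20000 UMIs than in the non-neuronal types, with a median log2 difference of 6.82, where 34.9% of all genes were and the median over all genes was -0.0591. The highest levels were those of *Pcsk1n*, a convertase inhibitor, at 1749 and 1596 CPM, *Scg2*, a secretogranin, at 795 and 460 CPM, *Pam*, the amidating enzyme, at 600 and 549 CPM, and *Cpe*, a carboxypeptidase, at 375 and 402 CPM. *Scg2* was close to absent outside neurons (1.21 CPM in SGCs), whereas *Pam* stood at 925 CPM in endothelial cells and *Cpe* at 540 CPM in fibroblasts.

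Of 30 receptor genes, 22 were tested, and 11 were called higher and 5 lower in neurons above 20000 UMIs than in the non-neuronal types, where 34.9% and 32.4% of all genes were. Those with the highest level in these neurons were *Npy1r* (175 and 97.5 CPM), *Sstr2* (43 and 31.9 CPM), *Sort1* (35.1 and 39.2 CPM) and *Npr2* (33.8 and 36.7 CPM), which encode receptors for neuropeptide Y, somatostatin, neurotensin and a natriuretic peptide. Of these, *Sort1* was among the 5 called lower. In the other types the highest receptor genes were *Ramp2* in SGCs (163 and 170 CPM) and fibroblasts (372 and 383 CPM), *Sort1* in both Schwann cell types, *Calcrl* in endothelial cells (541 and 550 CPM), *Npy1r* in mural cells (297 and 309 CPM) and *Ramp1* in macrophages (60 and 66.9 CPM). *Calcrl* with *Ramp1* forms the CGRP receptor. The free RNA level of *Ramp2* was 175 CPM, above that of SGCs. Mural cells had 11 of the 22 receptor genes called higher and fibroblasts 12, where 19.6% and 25.2% of all genes were.

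Among 6 peptidase genes, *Ece2* (57.7 and 59.7 CPM) was called higher in neurons above 20000 UMIs and 4 were called lower, where 34.9% and 32.4% of all genes were. *Ece1* stood at 27.2 and 30.8 CPM in neurons and at 274 CPM in endothelial cells, and *Mme*, the gene of neprilysin, which cuts substance P, stood at 3.08 and 3.87 CPM in neurons and at 208 CPM in myelinating Schwann cells. *Ace* was at 0.171 and 0.921 CPM in neurons. Of 17 other neuropeptide genes, 8 passed the filter on low counts, and *Nmb*, *Penk*, *Pdyn* and *Pomc* were called higher in neurons above 20000 UMIs and *Adm*, the gene of adrenomedullin, lower (0.171 and 0.553 CPM), against the same shares of all genes. *Nmb*, the gene of neuromedin B, was the highest, at 79.3 and 70.2 CPM. It alone of the 8 was called higher in these neurons than in free RNA, where 32.5% of all genes were. *Pomc* stood at 6.17 and 5.16 CPM, and at 5.41 CPM in myelinating Schwann cells. *Penk*, the enkephalin precursor, was at 2.57 and 6.82 CPM in neurons and at 60.1 CPM in fibroblasts, and *Pdyn* at 0.857 and 4.61 CPM in neurons. In free RNA *Penk* stood at 7.1 and 6.09 CPM, *Pdyn* at 2.47 and 3.13 CPM and *Pomc* at 5.6 and 4.7 CPM. *Iapp*, the gene of the islet peptide amylin, stood at 358 and 536 CPM in free RNA, and at no more than 2.09 CPM in any non-neuronal type. *Pyy* likewise stood at 95.1 and 28.9 CPM in free RNA. Both were picked out after their values were seen, and where this RNA came from was not tested.

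Over the 20 profiles of the cell types, the genes whose log2(CPM + 1) was most like that of a member were found by correlation. Pearson's r was 0.992 between *Calca* and *Rit2*, 0.996 between *Tac1* and *Mast1*, 0.993 between *Adcyap1* and *Add2*, 0.99 between *Gal* and *Tstd1* and 0.992 between *Calcb* and *Prph*. *Sst* was most like *Nppb* (0.95). For *Nppb* it was *Mapk13* (0.966), for *Cartpt* *Tmem74* (0.977) and for *Nts* *Tesc* (0.867). *Npy* was most like *Gm21954* (0.903), followed by *Garem2* (0.879). These values are descriptions with no test, and the profiles of 1 library share its depth and its free RNA and the neuronal groups set most of the range.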

How the data were processed

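Per the labels and the study's methods, cells dissociated from L4 and L5 DRGs were sequenced with 3′ chemistry. Raw UMI counts, with a row per gene and a column per barcode, were deposited by the authors from Cell Ranger 7.1.0 (file header), with mm10 named in the processing notes. Totals were 119101743 and 128668771 UMIs. Cells were called here (17523), kept above 300 genes and below 22% mitochondrial UMIs, and clustered with Seurat 5.3.0 (sctransform 0.4.2, R 4.3.3). Listed genes were held out of clustering, and clusters were named from the study's marker pairs and at least 3 markers. The planned upper cutoff of 46383 UMIs became an alternative because it removed most neurons above 20000 UMIs. Doublets were marked with scanpy 1.11.5 (486 cells) and kept. UMIs were summed per sample and type, and genes with at least 10 UMIs in 2 profiles were fitted with edgeR 4.0.16 (quasi-likelihood, TMM, Benjamini-Hochberg, threshold 0.05) over 22 profiles, with DESeq2 1.42.0 as an alternative. Share intervals are exact binomial and level intervals exact Poisson, and both cover counting error only. A count of 0 was read against 3 UMIs.

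Replicate numbers pair profiles by dissociation, since every type of a number came from the same sample. Deviations of same-numbered profiles correlated at a median r of 0.0255 over 45 pairs. Tested on simulated data, the fit recovered 84% of 2-fold and 100% of 4-fold changes for neurons above 20000 UMIs against the other types, but 25% and 68% for neurons under 3000 UMIs. It recovered 83% and 99% for SGCs against free RNA and 86% and 99% for mural cells. Changes were placed only in genes above a floor on mean CPM over the non-neuronal and free RNA profiles. *Npy* and *Nppb* lay below that floor, so that these rates do not cover them. All 10 members were reported in every group. From each list, the 4 genes with the highest mean level in neurons above 20000 UMIs and the highest receptor per type were named. The members and lists were chosen with earlier results of these data known.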

Additional observations from a re-analysis of the deposited data

Results flagged for a closer look

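*Npy* UMIs were also found in cells that no comparison used. The unnamed cluster led by *Pou3f1* and *Pde10a* held *Npy* at 0.973 CPM in replicate 1 (14 UMIs in 5 of 1262 cells) and at 0.873 CPM in replicate 2 (11 UMIs in 9 of 1050 cells). A count of 0 would have allowed 0.208 and 0.238 CPM. These levels lie below those of SGCs (1.56 and 1.72 CPM) and above those of myelinating Schwann cells (0.198 and 0.185 CPM). The cluster held markers of both SGCs and non-myelinating Schwann cells and was given no name, and the difference was not tested. The other unnamed cluster, led by *Cd74* and *H2-Eb1*, held 2 UMIs of *Npy* in replicate 1 (1.62 CPM) and 0 in replicate 2, both below the 3 UMIs that a count of 0 allows.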

How the results depend on the processing

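Of 125 alternatives with a test over 8 results, 117 kept the direction and the side of the threshold, or a count within 1.5 times. With the UMI cutoff, 6 members were called in neurons above 20000 UMIs. Against neurons under 3000 UMIs, 6 were called without the filter on low counts. Without shared barcodes 5 were called, where 8.38% of all genes were, and 5 also when these barcodes were left out of free RNA. The share of all genes called is not given for the cutoff, the missing filter or the replicate block, so that those counts cannot be set against it. Free RNA at its estimated share called 1 member, *Npy* (5.63 on the log2 scale, and 6.24 without shared barcodes), where 89.1% and 89.6% of all genes were called higher. Leaving out a replicate leaves no test and gave -0.23 (without replicate 2) to 2.06 for *Npy* against free RNA, 5.52 to 6.42 against the other types, and for *Nts* in mural cells 7.91 to 9.48 against the other types and 1.57 to 4.78 against free RNA. The cause was not tested. With the replicate block, *Npy* against free RNA was 0.80 (adjusted p = 0.32) and 4 members were called between the neuron classes, and no other call changed among these results.

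With library totals, SGCs against free RNA moved from 4798 genes higher and 4484 lower to 1967 and 7150, with the median of all genes at -0.32 in place of 0.08. The neuron classes moved from 984 and 101 to 232 and 261, and to 349 and 814 with DESeq2. Calling cells from UMI totals alone gave no neurons under 3000 UMIs, and 20 principal components gave no non-myelinating Schwann cells. The level of *Npy* in free RNA rests on 8 and 3 UMIs.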
